A study of Homo sapiens with 60 samples.

Results

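The 26S proteasome is described here through 32 genes that encode constitutive subunits of its 20S core and 19S regulatory particle, in HT29 cells exposed to herbal extracts. SEM1 is not among these 32 and is counted later with the factors associated with the proteasome. The members were chosen by symbol, and all 32 were found among the 60675 gene rows of the count table: 14 genes of the 20S core (PSMA1 to PSMA7 and PSMB1 to PSMB7), 10 of the 19S base (PSMC1 to PSMC6, PSMD1, PSMD2, PSMD4 and ADRM1) and 8 of the 19S lid (PSMD3, PSMD6, PSMD7, PSMD8, PSMD11, PSMD12, PSMD13 and PSMD14). All 32 were among the 16890 genes with enough counts to be tested.

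The proteasome degrades proteins that carry ubiquitin chains. Its core is a barrel of stacked rings, in which the alpha subunits form the gate and the PSMB5, PSMB6 and PSMB7 products carry the chymotrypsin-like, caspase-like and trypsin-like active sites. The 19S base unfolds substrates with a ring of ATPases (PSMC genes) and binds ubiquitin through PSMD4 and ADRM1, while the lid holds the deubiquitinase PSMD14. Subunit genes are known to be induced together when proteasome activity falls, through the transcription factor NFE2L1, which is released from the endoplasmic reticulum by p97 (VCP), NGLY1 and DDI2. The related factor NFE2L2 responds to electrophiles and oxidants and can also act on subunit genes.

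HT29 is an established human line from a colorectal adenocarcinoma. Every library was made from total RNA of HT29 cells after 24 h of exposure, and the labels name no genetic change in any group. The vehicle group (3 libraries) received DMSO, at 0.1% in the sample labels and at 2% in the series text, and the labels give no DMSO content for the extracts. Water extracts of the decoctions Yijin-tang (3 libraries per dose) and Soshiho-tang (2 libraries per dose, numbered 2 and 3), and ethanol extracts of Schisandrae Fructus, Liriopis seu Ophiopogonis Tuber, Zizyphi Semen and Longan Arillus (3 libraries per dose each) were given at 500, 100 and 20 µg/mL, named high, medium and low. An ethanol extract of Aucklandiae Radix was given at 370, 74 and 14.8 µg/mL and one of Polygalae Radix at 380, 76 and 15.2 µg/mL, with 1 library per dose. Per the series text, an extract whose IC20 lay below the standard top dose was given at its IC20 and at dilutions of it, so these top doses are tied to toxicity. The labels do not say whether replicates came from separate cultures, so p-values measure only the spread between these libraries. Library names place the vehicle in set C1, Yijin-tang and Soshiho-tang in set 8, Liriopis and Schisandrae in set 9, Longan and Zizyphi in set 10 and Polygalae and Aucklandiae in set 11, so that against the vehicle an extract and its set cannot be told apart. In bulk RNA, fewer cells of a type and less RNA per cell cannot be told apart either.

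Library totals ran from 18161717 to 35128954 expected counts, with a median of 25406509, and the 32 members together took 0.414% to 0.724% of a library. Epithelial markers were present in all 60 libraries, with EPCAM at 363 to 825 CPM and KRT8 at 4356 to 9555 CPM. CPM are counts scaled to a common library size. Markers of other cell types were mixed. The hepatocyte marker ALB was at 0 in 54 libraries and the endothelial marker CDH5 at 0 in 56. PECAM1 (endothelial), CYP2E1 (hepatocyte), COL1A1 (fibroblast), LAPTM5 and CD74 (leukocyte) were at 0 in no library. The lowest values were 0.6899 CPM for PECAM1, 0.8814 for COL1A1 and 2.418 for CD74. They were 0.04243 CPM for CYP2E1 and 0.04641 for LAPTM5. The other listed markers of these cell types were at 0 in 8 to 58 libraries. A pair of libraries stood apart. Soshiho-tang high dose replicate 3 held transcripts of blood cells: 8 leukocyte and erythroid markers summed to 35.2 CPM there and to at most 5.49 CPM in any other library, with HLA-DRA (3.93 CPM) at 0 in 58 libraries. Yijin-tang low dose replicate 2 had 10.7% of its counts on 82 ribosomal protein genes, against at most 5.52% elsewhere. Calls of members and of related genes that rest on either library are given with and without them. When both are left out, Soshiho-tang high dose keeps 1 library, whose spread is then assumed to be like that of the other groups.

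Sequences at the start sites of the members are shown first, because the genes were higher or lower together in several libraries and because one short sequence, the antioxidant response element, is the known binding site of NFE2L1 and NFE2L2. Its core letters TGACNNNGC were searched on both strands of the RefSeq windows (GRCh38.p14, 250 bases before to 50 after a start). Windows were found for 27 of the 32 members. PSMA7, PSMB1, PSMB6, PSMB7 and PSMD4 had none in the table. At least one window held the letters in 8 of 27 members, or 29.6%, against 16.1% of all 27305 symbols. CCAAT was present in 16 of the 27 members (59.3%, against 39.7% of symbols) and GGGCGG in 19 (70.4%, against 48.3%). No match to TGACNNNGC overlapped one of the other motifs. A match is a description of letters and does not show binding. One match of each of the 8 genes follows in the direction of transcription, 5′ to 3′, with the matching letters in capitals. In PSMC4 and PSMC5 the match lies on the opposite strand, so their capitals show the reverse complement of TGACNNNGC.
PSMA4 (chr15:78540650-78540678, plus strand): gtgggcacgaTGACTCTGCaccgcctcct
PSMB3 (chr17:38752627-38752655, plus strand): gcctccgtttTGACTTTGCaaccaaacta
PSMC4 (chr19:39971182-39971210, plus strand, after the start): acagaggccgGCTTGGTCActatggagga
PSMC5 (chr17:63827654-63827682, plus strand): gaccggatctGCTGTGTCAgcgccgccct
PSMD1 (chr2:231056896-231056916, plus strand, after the start): aggaggcgacTGACTGAGCag
ADRM1 (chr20:62302749-62302777, plus strand): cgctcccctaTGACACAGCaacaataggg
PSMD3 (chr17:39980760-39980788, plus strand): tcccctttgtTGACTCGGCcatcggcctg
PSMD12 (chr17:67366724-67366752, minus strand): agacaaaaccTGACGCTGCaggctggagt

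The 250 bases before the start are printed for 4 members on which later results turn. ADRM1, PSMD12 and PSMC3 were higher with the high dose of Soshiho-tang with and without the libraries that stand apart. ADRM1 and PSMD12 of these are printed, and the window of PSMC3 holds no TGACNNNGC. PSMC4 had the highest ratio at the high dose of Aucklandiae Radix and PSMD7 the lowest. Capitals mark TGACNNNGC, which among the 4 printed members only ADRM1 and PSMD12 hold before the start.
ADRM1 (chr20:62302646-62302895, plus strand): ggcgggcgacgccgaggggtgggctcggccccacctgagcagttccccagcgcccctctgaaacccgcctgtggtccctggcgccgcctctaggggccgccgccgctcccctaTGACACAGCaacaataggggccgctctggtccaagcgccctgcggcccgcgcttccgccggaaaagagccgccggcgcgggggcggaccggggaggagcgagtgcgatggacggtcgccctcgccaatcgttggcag
PSMD12 (chr17:67366578-67366827, minus strand): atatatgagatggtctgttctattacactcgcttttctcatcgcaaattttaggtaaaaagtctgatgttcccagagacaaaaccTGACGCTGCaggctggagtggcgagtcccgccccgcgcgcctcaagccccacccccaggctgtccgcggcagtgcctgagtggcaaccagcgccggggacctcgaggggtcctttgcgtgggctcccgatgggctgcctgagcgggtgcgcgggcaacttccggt
PSMC4 (chr19:39970915-39971164, plus strand): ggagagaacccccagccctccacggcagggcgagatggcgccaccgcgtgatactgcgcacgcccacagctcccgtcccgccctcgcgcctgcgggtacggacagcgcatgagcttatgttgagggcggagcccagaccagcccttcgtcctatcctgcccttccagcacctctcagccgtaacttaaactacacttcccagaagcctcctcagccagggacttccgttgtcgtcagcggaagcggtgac
PSMD7 (chr16:74296564-74296813, plus strand): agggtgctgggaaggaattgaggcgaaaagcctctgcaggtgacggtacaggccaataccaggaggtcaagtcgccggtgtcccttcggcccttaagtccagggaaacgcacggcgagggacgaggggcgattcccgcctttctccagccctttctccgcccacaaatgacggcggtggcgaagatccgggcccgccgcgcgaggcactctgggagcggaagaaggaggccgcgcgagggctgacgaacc

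The mean level of the 32 genes lay well outside the vehicle libraries in 4 libraries. On the log2 CPM scale, the mean difference from the vehicle was -0.05, 0.02 and 0.03 in the 3 vehicle libraries. It was 0.55 in Aucklandiae Radix high dose, -0.29 in Polygalae Radix high dose, 0.28 in Soshiho-tang high dose replicate 3 and 0.75 in Yijin-tang low dose replicate 2. The last 2 of these are the libraries that stand apart, and their replicates were at 0.05 (Soshiho-tang high dose replicate 2) and at -0.01 and -0.05 (Yijin-tang low dose replicates 1 and 3). All other libraries lay between -0.13 and 0.10. Ranked by group mean, Aucklandiae Radix high dose was highest, then Yijin-tang low dose (0.23 ± 0.45, SD, n = 3), Soshiho-tang high dose (0.16 ± 0.16, SD, n = 2), Aucklandiae Radix medium dose (0.08) and Longan Arillus low dose (0.05 ± 0.04, SD, n = 3). Polygalae Radix high dose was lowest, below Polygalae Radix medium dose (-0.09). Between them stood 18 other group means from -0.07 to 0.02, the vehicle among them, and neighbouring replicated groups in this order differed by no more than the larger of their SDs.

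**Figure D1:**
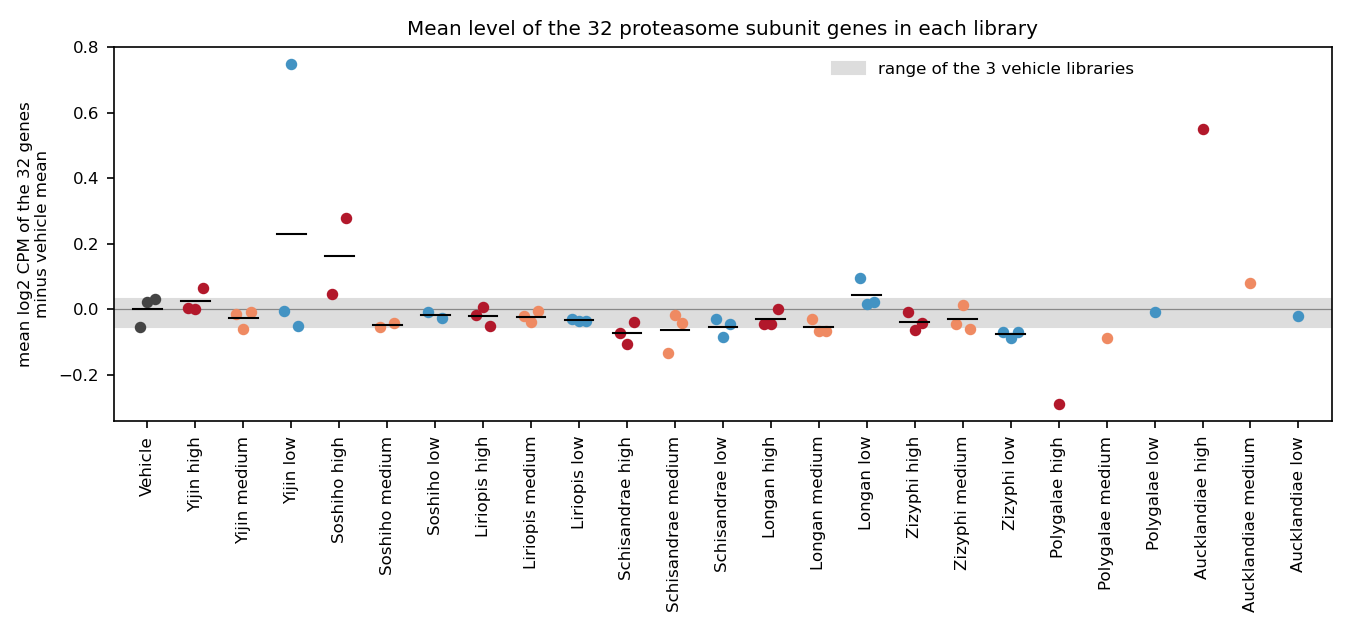
Each point is 1 library; the y axis is its mean log2 CPM over the 32 genes minus the mean of the 3 vehicle libraries, black lines are group means, and colours mark high (dark red), medium (orange) and low (blue) doses. Aucklandiae high (0.55) and Polygalae high (-0.29) lie outside the grey vehicle range on opposite sides, and the points at 0.75 (Yijin low) and 0.28 (Soshiho high) are the libraries that stand apart.

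At the high dose of Aucklandiae Radix (370 µg/mL, 1 library) nearly all members were higher than in the vehicle. Of the 32 members, 30 were above every vehicle library, against 39.2% of all genes tested, and 14 were at least 1.5-fold above the vehicle mean, against 15.9% of all genes. No member was 1.5-fold below it (0 of 32, against 20.3% of all genes). The median log2 ratio of the members was 0.55 and that of all genes tested -0.01. With 1 library there is no replicate check and no test. Counting error, which is the only error that can be given, was at most 0.0735 on the log2 scale for any member (to either side, by the exact 95% Poisson interval), on 1500 to 11152 counts per member. The members took 0.645% of this library's counts (exact 95% binomial interval 0.642% to 0.648%), against 0.451% to 0.481% in the vehicle.

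Within the 20S core, 13 of 14 genes were above every vehicle library, with a median log2 ratio of 0.51. The 3 genes of the active sites were all among them. PSMB7, the trypsin-like subunit (chr9:124353466-124415444, GRCh38, minus strand), had 243.1 CPM at the high dose of Aucklandiae Radix and 125.4 to 134.3 CPM in the vehicle, a log2 ratio of 0.89. PSMB6, the caspase-like subunit (chr17:4796144-4798503, plus strand), had 125.1 CPM against 64.58 to 73.02, a log2 ratio of 0.86. PSMB5, the chymotrypsin-like subunit and the main target of proteasome inhibitor drugs (chr14:23016543-23035230, minus strand), had 87.23 CPM against 60.75 to 65.52, a log2 ratio of 0.47. The 7 alpha genes, which form the outer rings and the gate, had lower ratios than PSMB6 and PSMB7 and ran up to 0.59 (PSMA1). PSMA4 (chr15:78540405-78552419, plus strand) was the exception among them: its 238.1 CPM lay inside the vehicle's 205.0 to 262.9 CPM.

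In the 19S base all 10 genes were above every vehicle library, with a median log2 ratio of 0.59. PSMC4, an ATPase of the unfolding ring (chr19:39971005-39981441, plus strand), had the highest ratio of all members, 1.16, with 320.9 CPM against 134.7, 145.5 and 151.4 CPM in the vehicle. The other 5 ATPase genes had ratios of 0.46 to 0.62. PSMD2, the scaffold subunit that binds ubiquitin-like shuttle proteins, had a ratio of 0.81, the ubiquitin receptor genes PSMD4 and ADRM1 had 0.76 and 0.55, and the second large scaffold gene PSMD1 had 0.13. PSMD1 and PSMD2, which encode related scaffolds of the same subcomplex, thus differed by more than the counting error.

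In the 19S lid 7 of 8 genes were above every vehicle library, with a median log2 ratio of 0.64, and 1 was below all of them, against 41.4% of all genes. PSMD14, the deubiquitinase that cuts chains from substrates (chr2:161308038-161411717, plus strand), had 152.1 CPM against 74.81, 80.48 and 76.38 CPM, a ratio of 0.98. PSMD8 followed with 0.80, and PSMD3 and PSMD12 had 0.67 each. PSMD7, the partner of PSMD14 in the lid (chr16:74296775-74306288, plus strand), was below every vehicle library: it had 122.0 CPM against 123.0, 138.6 and 143.7 CPM, a ratio of -0.14. Its gap to the lowest vehicle library was smaller than the counting error. The pair that forms the catalytic dimer of the lid therefore had the second highest and the lowest ratio of the 32 members.

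**Figure D2:**
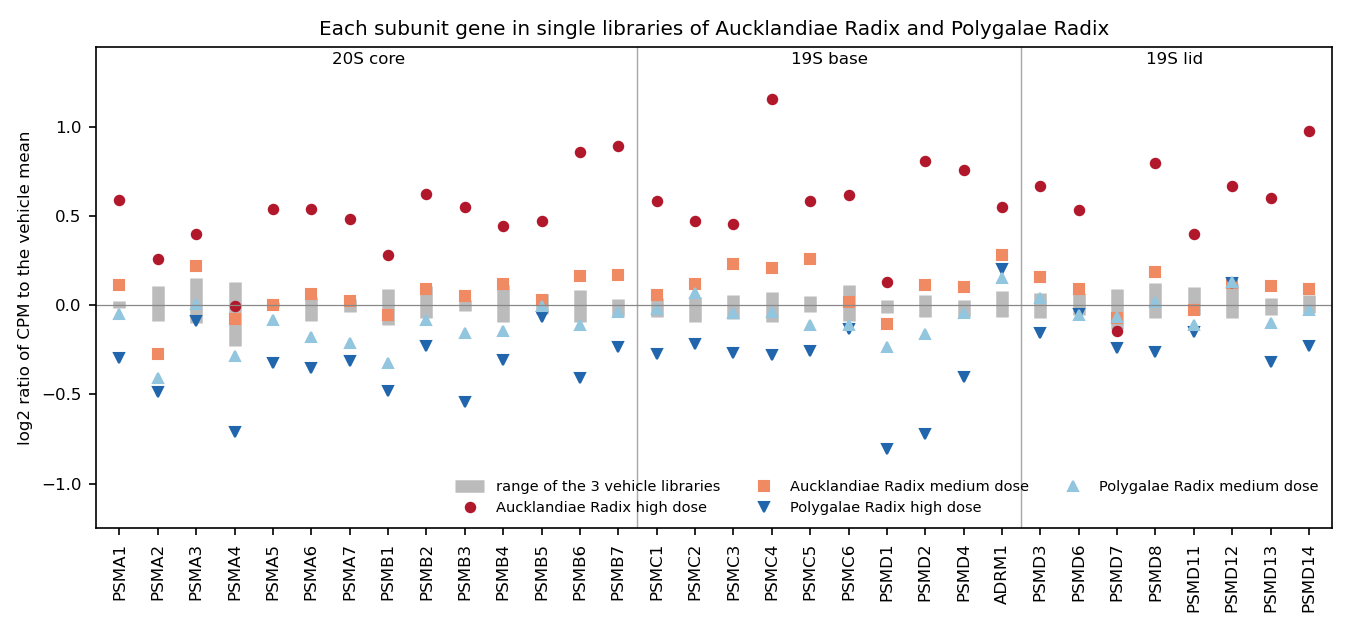
The y axis is the log2 ratio of each gene's CPM to the mean of the 3 vehicle libraries (grey bars: their range), for the 32 genes in the order of the subcomplexes, in 4 single libraries. At the high dose of Aucklandiae Radix the points reach 1.16 (PSMC4) with only PSMA4 and PSMD7 not above the bars, and at the high dose of Polygalae Radix 30 of 32 points are below 0.

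Members with the TGACNNNGC letters in a window and members without them had like ratios in this library. The median was 0.57 in the 8 with a match and 0.54 in the 19 without, and both the highest member (PSMC4) and PSMA4, which lay within the vehicle, hold a match, as printed above. PSMD14 and PSMD7 hold none.

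The differences were much smaller at the lower doses of Aucklandiae Radix. With 74 µg/mL their median log2 ratio was 0.10, and 21 of 32 were above every vehicle library, against 26.3% of all genes, and 2 below, against 28.8%. ADRM1 was highest there with 0.29 (305.4 CPM), followed by PSMC5 with 0.26 and PSMC3 with 0.23, all of the base. PSMC4 had 166.3 CPM and PSMB7 147.0 CPM, both above the vehicle's highest library, while PSMA2, an alpha subunit, was lowest with -0.28. At 14.8 µg/mL the median was -0.01, and 4 of 32 were above every vehicle library, against 23.3% of all genes, and 9 below, against 25%. PSMC4 had 142.7 CPM and PSMB7 121.1 CPM at that dose.

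The partners of the proteasome did not move as one group at the high dose of Aucklandiae Radix. The inducible subunits and the PA28 cap, which interferon induces, were all below the vehicle mean: PSME1 had a log2 ratio of -0.75, PSMB8 -0.74, PSME2 -0.42, PSMB10 -0.37 and PSMB9 -0.14. Of these 5 genes, 4 were below every vehicle library, against 41.4% of all genes. PSMB9 had a mean of 7.9 expected counts over the libraries, so its ratio rests on few counts. PSME4 (PA200), a cap linked to histone degradation, had 0.96, PSMF1 (an inhibitor of the core) 0.38 and PSME3 (PA28 gamma) 0.24. Counts in the lists of chaperones and factors are read against the 39.2% and 41.4% of all genes above and below every vehicle library. Of 9 assembly chaperones, 4 were above and 3 below, near those shares: POMP, which matures the core, had 0.57 and PSMD9, which helps to build the base, 0.51, while PSMG4 and PSMG1, which act on the alpha ring, had -0.65 and -0.57. Of 12 associated factors 9 were above and 2 below every vehicle library, with ECPAS (0.75) and the shuttle gene UBQLN1 (0.66) at the top, and DDI2 (-0.39) and UBQLN2 (-0.37) at the bottom.

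The 11 genes listed for the NFE2L1 route and p97 were all higher in the same library. DDI2, named above as part of the release of NFE2L1, is listed with the associated factors and had -0.39. Each of the 11 listed genes was above every vehicle library, against 39.2% of all genes. Their median log2 ratio was 0.63, against -0.01 over all genes. NFE2L1 itself had 0.63, VCP 0.57, the p97 cofactor UFD1 0.78, the ubiquitin ligase SYVN1 0.98, and the small MAF partners MAFF and MAFK 1.53 and 1.17. The 10 NFE2L2 target genes were all at least 1.5-fold above the vehicle mean, against 15.9% of all genes, with a median of 1.80. Among stress genes, the autophagy receptor SQSTM1 had 2.31 and the proteotoxic stress gene ZFAND2A 1.43, while the chaperones HSPB1 and HSPA8 had -0.97 and -0.82. Of the ubiquitin genes RPS27A had -0.57 and UBB 0.06. Reads of UBB can be split with near-identical copies, so its value is uncertain. Markers of the line differed from the vehicle in this library too: CEACAM5 had 1.62 and KRT20 1.58, CDX1 -2.51 and CDX2 -1.86. CDX1 and CDX2 were low throughout, with at most 1.32 and 5.77 CPM in any library, so their ratios rest on few counts. The 10 epithelial markers summed to 15680 CPM against 12110 to 14230 in the vehicle. The endothelial gene PECAM1 was at 8.83 CPM, against at most 2.41 elsewhere, VWF, another endothelial marker, was also highest there with 0.382 CPM against at most 0.135 elsewhere, CDH5 was at most 0.0944 CPM in any library, and the 10 fibroblast, endothelial and hepatocyte markers summed to 12.5 CPM there against at most 4.15 elsewhere. The part of these changes in the proteasome values was not tested.

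**Figure D3:**
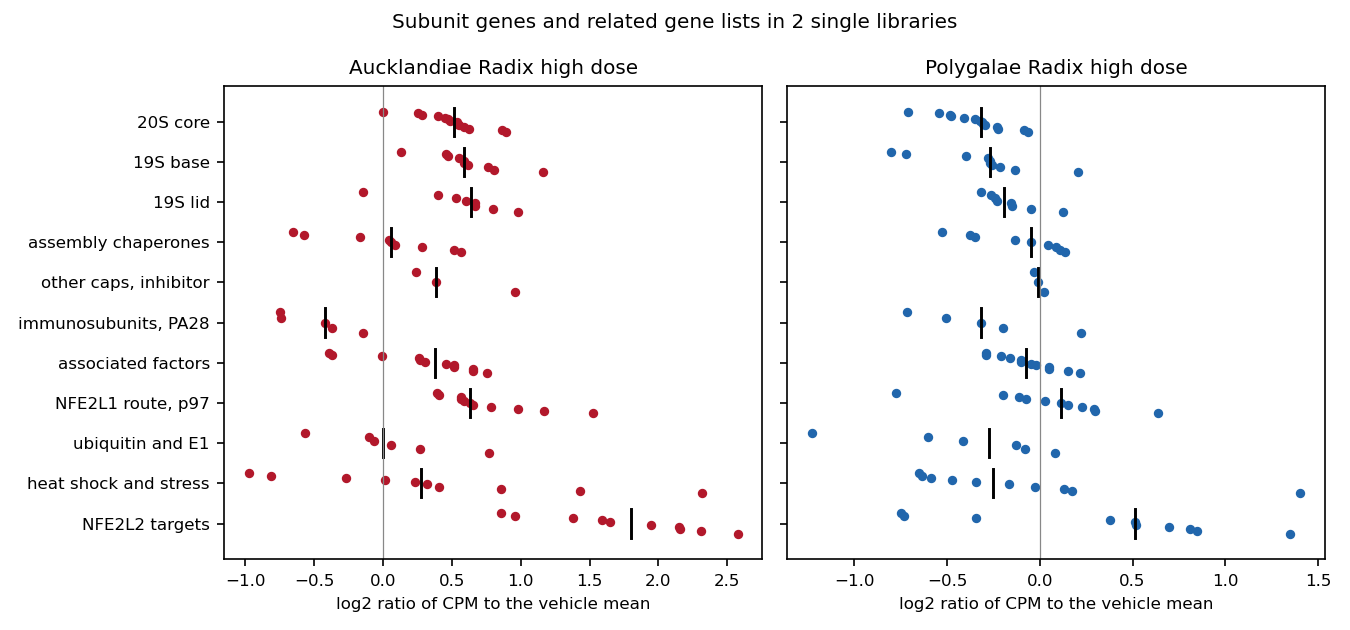
Each point is 1 gene, the x axis is the log2 ratio of its CPM to the vehicle mean, rows are gene lists, and black bars are the medians; the panels show the high doses of Aucklandiae Radix and Polygalae Radix, 1 library each. The medians of the 3 subunit lists are right of 0 with Aucklandiae (0.51, 0.59 and 0.64) and left of 0 with Polygalae (-0.32, -0.27 and -0.19). All 5 immunosubunit and PA28 genes lie left of 0 with Aucklandiae, PSMB9 among them on few counts.

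With the high dose of Polygalae Radix (380 µg/mL, 1 library) the members were lower than in the vehicle. Of the 32 members, 28 were below every vehicle library, against 34.9% of all genes tested, and 3 were at least 1.5-fold below the vehicle mean, against 8.99% of all genes. None was 1.5-fold above it, against 5.39%. The median log2 ratio was -0.27 for the members and -0.00 for all genes. The 3 with the lowest ratios were the 2 scaffold genes of the base, PSMD1 (-0.81, 121.7 CPM against 206.3 to 217.0) and PSMD2 (-0.72, 151.0 CPM against 238.2 to 259.6), and the alpha gene PSMA4 (-0.71, 145.8 CPM against 205.0 to 262.9). In the core 13 of 14 genes were below every vehicle library, with PSMB3 at -0.54, PSMB6 at -0.41, PSMB7 at -0.23 and PSMB5 at -0.07 (59.95 CPM, just under the vehicle's 60.75 to 65.52). Only 2 members were above the vehicle mean, and both were above every vehicle library, against 33% of all genes: ADRM1 with 0.21 (289.0 CPM against 240.1 to 264.9) and PSMD12 with 0.13 (210.1 CPM against 183.4 to 209.6). This library has no replicate, and the counting error was at most 0.0851 on the log2 scale for any member.

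At the medium dose of Polygalae Radix the members were lower by less, and at the low dose they stood near the vehicle. At 76 µg/mL the median was -0.07, with 18 of 32 members below every vehicle library, against 28.1% of all genes, and 3 above, against 28%. PSMA2 (-0.41), PSMB1 (-0.33) and PSMA4 (-0.28), all of the core, were lowest, while the lid had a mean of -0.02. At 15.2 µg/mL the median was -0.00, and 6 of 32 were below every vehicle library, against 24.2% of all genes, and 7 above, against 25.3%. Related genes in the high dose library are read against the 33% of all genes above every vehicle library and the 34.9% below. Of the 11 genes of the NFE2L1 route and p97, 6 were above and 4 below, with a median log2 ratio of 0.11, and VCP was the lowest of them with -0.77. Of the 6 ubiquitin and ubiquitin-activating genes 1 was above and 4 below, with a median of -0.27, and the activating enzyme UBA1 was lowest with -1.23. Of the 10 stress genes 2 were above and 6 below, with a median of -0.25, and SQSTM1 was highest with 1.41. Of the 10 NFE2L2 target genes 7 were above and 3 below, with a median of 0.52. OSGIN1 (1.35) and HMOX1 (0.81) were among the 4 that were at least 1.5-fold above the vehicle mean, against 5.39% of all genes. NQO1 had -0.73 and ME1 -0.34. The 10 epithelial markers summed to 8463 CPM, below the vehicle's 12110 to 14230, with VIL1 at -1.62. The part of this in the proteasome values was not tested.

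With all libraries kept, several subunit genes of the 19S particle were called higher at the high dose of Soshiho-tang. These calls depended on which libraries were used, as described below. By edgeR's quasi-likelihood test with Benjamini-Hochberg adjustment over all genes, 5 of 32 members were higher than in the vehicle and none lower, against 7.93% of all genes called in either direction. All 5 belong to the 19S particle. Of the 32 members 30 had a positive log2 fold change, with a median of 0.17 against -0.00 over all genes. In 11 members the 2 libraries lay above every vehicle library, against 16.4% of all genes. The 14 core genes had a median of 0.19 and 0 calls (1 at an unadjusted p under 0.05). The medians of the base and the lid were 0.175 and 0.15, so the core was not lower than the 19S particle in this fit.

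In the base, ADRM1, the ubiquitin receptor (chr20:62302093-62308862, plus strand), had 309.7 and 308.8 CPM in the 2 libraries of the high dose of Soshiho-tang and 240.1, 247.4 and 264.9 CPM in the vehicle. Both were above all vehicle libraries, with a log2 fold change of 0.30 ± 0.09 (SE, adjusted p = 0.024, edgeR). PSMC3, an ATPase gene, had 152.5 and 159.8 CPM against 121.8, 133.8 and 129.3 CPM, a log2 fold change of 0.28 ± 0.08 (SE, adjusted p = 0.021, edgeR). The scaffold gene PSMD2 had 278.4 and 298.7 CPM against 249.7, 259.6 and 238.2 CPM, a log2 fold change of 0.21 ± 0.05 (SE, adjusted p = 0.0041, edgeR). These 3 genes did not overlap with the vehicle in any library.

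In the lid, PSMD12, a scaffold subunit (chr17:67337916-67366627, minus strand), had 225.1 and 237.4 CPM against 183.4, 209.6 and 185.2 CPM, a log2 fold change of 0.26 ± 0.06 (SE, adjusted p = 0.0020, edgeR). PSMD14 had 85.52 and 111.5 CPM against 74.81, 80.48 and 76.38 CPM, a log2 fold change of 0.35 ± 0.09 (SE, adjusted p = 0.0077, edgeR). For PSMD14 the library with blood transcripts was the higher of the pair, and the fold change was 0.16 without it (adjusted p = 0.55, edgeR) and 0.53 without the other library. It was 0.15 (adjusted p = 0.175) without both libraries that stand apart. PSMB5 of the core showed the same spread more widely, with 67.53 and 92.47 CPM against 60.75 to 65.52, and did not pass the test (log2 fold change 0.35 ± 0.16, SE, adjusted p = 0.21, edgeR).

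The 2 libraries of this group differed most in the core. The mean log2 difference of the 14 core genes from the vehicle was -0.02 in replicate 2 and 0.34 in replicate 3, the library with blood transcripts. For the base it was 0.11 and 0.24, and for the lid 0.09 and 0.22. Replicate 3 had 29 of 32 members above every vehicle library, against 32.2% of all genes, and none below, against 31.4%. Replicate 2 had 11 above, against 29.3%, and 5 below, against 32.3%. The part of the blood transcripts in these values was not tested. Without the libraries that stand apart, 4 members were called higher and none lower, against 12.4% of all genes: ADRM1 (log2 fold change 0.31, adjusted p = 0.0085, edgeR), PSMC3 (0.25, adjusted p = 0.0012), PSMD12 (0.23, adjusted p = 0.0083) and PSMD3 (0.17, adjusted p = 0.038). Of the 5 genes called with all libraries, 3 were shared (ADRM1, PSMC3 and PSMD12), while PSMD2 had 0.16 (adjusted p = 0.054). In this fit 8 of the 14 core genes had a negative log2 fold change, with a median of -0.02 for the core, 0.10 for the base and 0.09 for the lid. Leaving out only replicate 3 of this group, with the ribosome-rich library kept, left 0 calls, leaving out vehicle replicate 1 left 3, and leaving out only the ribosome-rich library gave 15. The fit with the 2 groups alone gave 0. Shares of all genes called are not given for these fits, so the 15 do not show a change particular to the members. Every call, those of PSMC3 and PSMD12 among them, was thus lost without replicate 3 alone and in the fit with the 2 groups alone. The call of ADRM1 was also lost when vehicle replicate 1 or 2 or replicate 2 of the extract was left out. That of PSMC3 was also lost without vehicle replicate 1 (adjusted p = 0.096, edgeR).

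**Figure D4:**
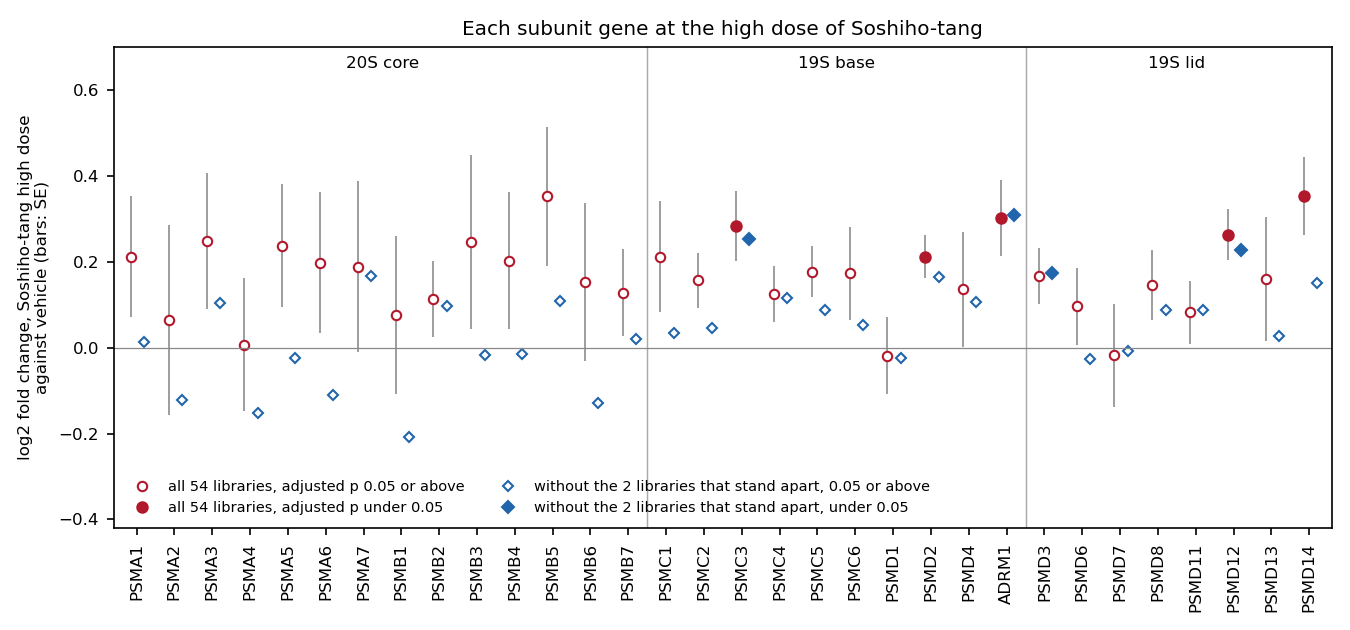
The y axis is the log2 fold change of each gene at the high dose of Soshiho-tang against the vehicle, from all 54 libraries of replicated groups (circles, bars are SE) and without the 2 libraries that stand apart (diamonds), with filled symbols for adjusted p under 0.05. The filled symbols all lie in the 19S base and lid, and the core genes are all lower in the second fit, 8 of 14 of them below 0.

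In comparison with its own low dose, which is in the same library set, the high dose of Soshiho-tang had 3 members called higher and none lower, against 6.29% of all genes. All 32 log2 fold changes were positive, with a median of 0.18. ADRM1 had 251.2 and 241.6 CPM at the low dose, a log2 fold change of 0.33 ± 0.10 (SE, adjusted p = 0.032, edgeR). The ATPase gene PSMC5 had 144.5 and 163.4 CPM at the high dose against 133.1 and 130.3 CPM at the low dose, a log2 fold change of 0.23 ± 0.07 (SE, adjusted p = 0.029, edgeR). PSMD8 had 288.8 and 313.9 CPM against 251.2 and 241.4 CPM, a log2 fold change of 0.29 ± 0.09 (SE, adjusted p = 0.041, edgeR). Without the libraries that stand apart 2 members were called higher, against 7.84% of all genes: ADRM1 (0.33, adjusted p = 0.010, edgeR) and the core gene PSMB2 (0.24, adjusted p = 0.019). PSMC5 (0.14, adjusted p = 0.17) and PSMD8 (0.23, adjusted p = 0.052) were not called in that fit. With the ribosome-rich library kept, leaving out high dose replicate 3, low dose replicate 2 or low dose replicate 3 left 0 calls. At the medium and low doses of Soshiho-tang 0 members were called against the vehicle (0 at an unadjusted p under 0.05 by edgeR, and 0 adjusted calls by DESeq2), with 0.237% and 0.101% of all genes called. Without the libraries that stand apart these counts of members were also 0, with 1.7% and 1.88% of all genes called. ADRM1 had 269.0 and 255.9 CPM at the medium dose.

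Among related genes at the high dose of Soshiho-tang, calls fell in the lists of associated factors, the NFE2L1 route, stress genes and NFE2L2 targets. Of all genes, 7.93% were called in this contrast. None of the 5 immunosubunit and PA28 genes was called against the vehicle by edgeR (0 at an unadjusted p under 0.05), and none of the 9 assembly chaperones (0 likewise). Of 12 associated factors RAD23B, a shuttle that carries ubiquitinated proteins, was higher (log2 fold change 0.19 ± 0.06, SE, adjusted p = 0.025, edgeR) and the shuttle UBQLN2 lower (-0.25 ± 0.08, SE, adjusted p = 0.039, edgeR). Of the 11 genes of the NFE2L1 route and p97 the 3 small MAF genes were higher, MAFG and MAFF by 0.40 each and MAFK by 0.15, while NFE2L1 (0.13, adjusted p = 0.69, edgeR) and VCP (0.17, adjusted p = 0.10, edgeR) did not pass the test. All 10 NFE2L2 targets rose, with 1.12 for GCLM and 1.16 for HMOX1, and SQSTM1 rose by 0.46. The heat shock genes DNAJB1 and HSPA8 were lower, by -0.26 and -0.18. Of the markers, KRT20 (0.33) was higher and VIL1 (-0.35) lower in the epithelial list, and LAPTM5 (2.98), CD74 (0.88) and PECAM1 (0.79) of other cell types were higher. Their part in the values of the members was not tested. All these genes share the 3 vehicle libraries with the members.

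The same lists were tested without the libraries that stand apart, a fit chosen after the values were seen, in which 12.4% of all genes were called. RAD23B (0.14, adjusted p = 0.067, edgeR) and UBQLN2 (-0.16, adjusted p = 0.20) did not pass there, but UBQLN1, ECPAS and UBE3C were higher and SEM1 lower. The 3 small MAF genes and SQSTM1 stayed higher, DNAJB1 and HSPA8 lower, and all 10 NFE2L2 targets higher (GCLM 1.08, HMOX1 1.03). SEL1L and NPLOC4 of the NFE2L1 route and the cap gene PSME4 (0.22) were called higher as well, and PSME1 (-0.22), PSME2 (-0.27) and the chaperone PSMG2 (-0.19) lower. NFE2L1 had 0.16 (adjusted p = 0.056) and VCP 0.14 (adjusted p = 0.26). Of the markers of other cell types only CD74 was called, and it was lower (-0.70). CEACAM5 (0.78) was called higher beside KRT20, and VIL1 stayed lower.

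The high dose of Yijin-tang, tested against the same vehicle libraries, had 1 member called higher and none lower, against 1.05% of all genes. PSMD12 had 215.3, 222.9 and 226.1 CPM, above all vehicle libraries (183.4 to 209.6), with a log2 fold change of 0.20 ± 0.05 (SE, adjusted p = 0.048, edgeR). Without the libraries that stand apart PSMD12 (0.20, adjusted p = 0.0023, edgeR) and PSMD14 (0.16, adjusted p = 0.034) were called, against 7.16% of all genes. The call of PSMD12 was lost when vehicle replicate 1 or 3 or any 1 library of the high dose was left out of the full fit. It was also lost with no filter on low counts (adjusted p = 0.68, edgeR), with the replicate number as a block (adjusted p = 0.053) and in a fit of both groups alone (adjusted p = 0.185). The medium dose had 0 calls (0 at an unadjusted p under 0.05 by edgeR, 0 by DESeq2), against 0.42% of all genes, and 0 without the libraries that stand apart, against 4.43%.

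At the low dose of Yijin-tang 13 members were called higher and none lower, against 12.1% of all genes, and this rested on replicate 2, the library rich in ribosomal protein transcripts. That library had 31 of 32 members above every vehicle library, against 42% of all genes, and 1 below, against 43.4%. Its core genes had the largest ratios, with a mean log2 difference of 1.12, against 0.49 for the base and 0.43 for the lid. PSMA7 had 726.5 CPM there and 267.1 and 245.6 CPM in replicates 1 and 3, which lie close to the vehicle's 249.3 to 262.6. PSMD3, a lid gene, was the exception, with 134.0 CPM in replicate 2 against vehicle values of 162.8 to 179.5. When both libraries that stand apart were left out, 0 members were called (1.96% of all genes), and 5 of the 13 fold changes turned negative. The high against the low dose of Yijin-tang likewise had 13 members called lower and none higher, against 21% of all genes, and 0 without these libraries (0.652%), with 9 of the 13 fold changes turned. The part of the ribosomal share in these values was not tested.

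In the 4 ethanol extracts with 3 libraries per dose, 0 members were called against the vehicle at any dose by edgeR or DESeq2. The share of all genes called was 0.45%, 0.373% and 0.491% for the high, medium and low doses of Liriopis seu Ophiopogonis Tuber. It was 0.693%, 0.474% and 0.16% for Schisandrae Fructus. It was 0.0829%, 0.0118% and 0.107% for Longan Arillus, and 0.16%, 0.0296% and 0.0355% for Zizyphi Semen. Each dose had 0 to 2 members at an unadjusted p under 0.05. The medians of the members ran from -0.08 (Zizyphi Semen low dose) to 0.06 (Longan Arillus low dose).

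Without the libraries that stand apart a few members passed the test in these extracts, mostly downward. PSMA4 was lower at all 3 doses of Schisandrae Fructus: at the high dose it had 209.1, 198.5 and 210.3 CPM, a log2 fold change of -0.22 (adjusted p = 0.030, edgeR), at the medium dose -0.28 (adjusted p = 0.0047) and at the low dose -0.22 (adjusted p = 0.038). The vehicle itself was split for this gene, with replicate 1 at 205.0 CPM and the others at 251.6 and 262.9 CPM, so the groups overlap. PSMB2, a core beta gene, was also lower at all 3 doses, by -0.18, -0.17 and -0.19, with 227.2, 233.4 and 238.9 CPM at the high dose against 250.4, 255.5 and 284.5 CPM in the vehicle. For PSMB2 every library of the extract lay below every vehicle library. With PSMC2 and PSMD1 these make 4 members lower at the high dose (6.17% of all genes called), with PSMA6 and PSMD7 4 at the medium dose (5.8%) and with PSMD1 3 at the low dose (4.69%).

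In the same fit 1 member was lower at the medium dose of Liriopis seu Ophiopogonis Tuber (PSMB2, -0.23, adjusted p = 0.0021, edgeR; 5.57% of all genes called) and 4 at the low dose (PSMA4, PSMB2, PSMD1 and PSMD7, from -0.15 to -0.21; 6.21%), and none at the high dose (4.85%). Zizyphi Semen had PSMA4 lower at the high dose (-0.23, adjusted p = 0.038; 3.15%) and PSMA2 and PSMB1 lower at the low dose (-0.29 and -0.28; 1.56%). PSMB1 had 109.2, 106.6 and 103.1 CPM there, below every vehicle library (119.5 to 137.6). Longan Arillus went the other way at its low dose, where PSMA3, PSMB5 and PSMD13 were higher (0.19, 0.18 and 0.16; 4.73%). PSMB5 had 72.42, 67.63 and 72.77 CPM there, above the vehicle's 60.75 to 65.52. The medium dose of Zizyphi Semen (0.773%) and the high and medium doses of Longan Arillus (2.22% and 0.923%) had 0 members called in this fit. All of these contrasts share the same 3 vehicle libraries, so genes that recur across extracts, such as PSMA4 and PSMB2, are not independent results.

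Between doses and between extracts of one library set the vehicle plays no part. Within the 4 ethanol extracts with 3 libraries per dose, the high against the low dose gave 0 calls for Liriopis (0% of all genes called), Schisandrae (0.189%), Longan (0.0178%) and Zizyphi (0.0533%), with 0 members at an unadjusted p under 0.05 by edgeR and 0 calls by DESeq2. Among high doses, Schisandrae against Liriopis (0.0947% of all genes) and Longan against Zizyphi (0.0237%) also had 0 calls and 0 members at an unadjusted p under 0.05. Yijin-tang against Soshiho-tang at the high dose had 0 calls, 8 members at an unadjusted p under 0.05 and 3.72% of all genes called. Of the 32 log2 fold changes in that contrast 31 were negative, that is lower with Yijin-tang, with a median of -0.14. Without the libraries that stand apart, ADRM1 (-0.27, adjusted p = 0.049, edgeR) and PSMC3 (-0.18, adjusted p = 0.044) were lower with Yijin-tang, against 4.93% of all genes. In that fit PSMA1 and PSMB3 had lower levels with the high dose of Longan Arillus than with its low dose (-0.13 and -0.16; 5.45%). The high against low contrasts of Liriopis (0% of all genes), Schisandrae (0.519%) and Zizyphi (0.242%) had 0 members called in it, as had Schisandrae against Liriopis (0.421%) and Longan against Zizyphi (0.0519%).

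Over the 6 replicated high doses, with all libraries, PSMA4 (0.15) and PSMB1 (0.14) had the largest mean absolute log2 fold change and PSMC4 (0.04) and PSMB7 (0.05) the smallest, although PSMC4 and PSMB7 were among the 3 highest ratios at the high dose of Aucklandiae Radix. All 6 contrasts share the 3 vehicle libraries, which are split for PSMA4 as given above, so this order is a description. With the libraries that stand apart left out, PSMA4 (0.17) and PSMB1 (0.16) were again at the top, and PSMA5 and PSMA1 (0.03 each) at the bottom, next to PSMB7 and PSMC4 (0.03 each). Outside the Aucklandiae high dose library, PSMC4 stayed between 118.5 CPM (Polygalae Radix high dose) and 171.0 CPM (Yijin-tang low dose replicate 2). PSMB6 ran from 51.79 to 169.3 CPM and PSMB5 from 57.84 to 151.3 CPM, each with its highest value in Yijin-tang low dose replicate 2 (the plot of 6 genes in every library).

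**Figure D5:**
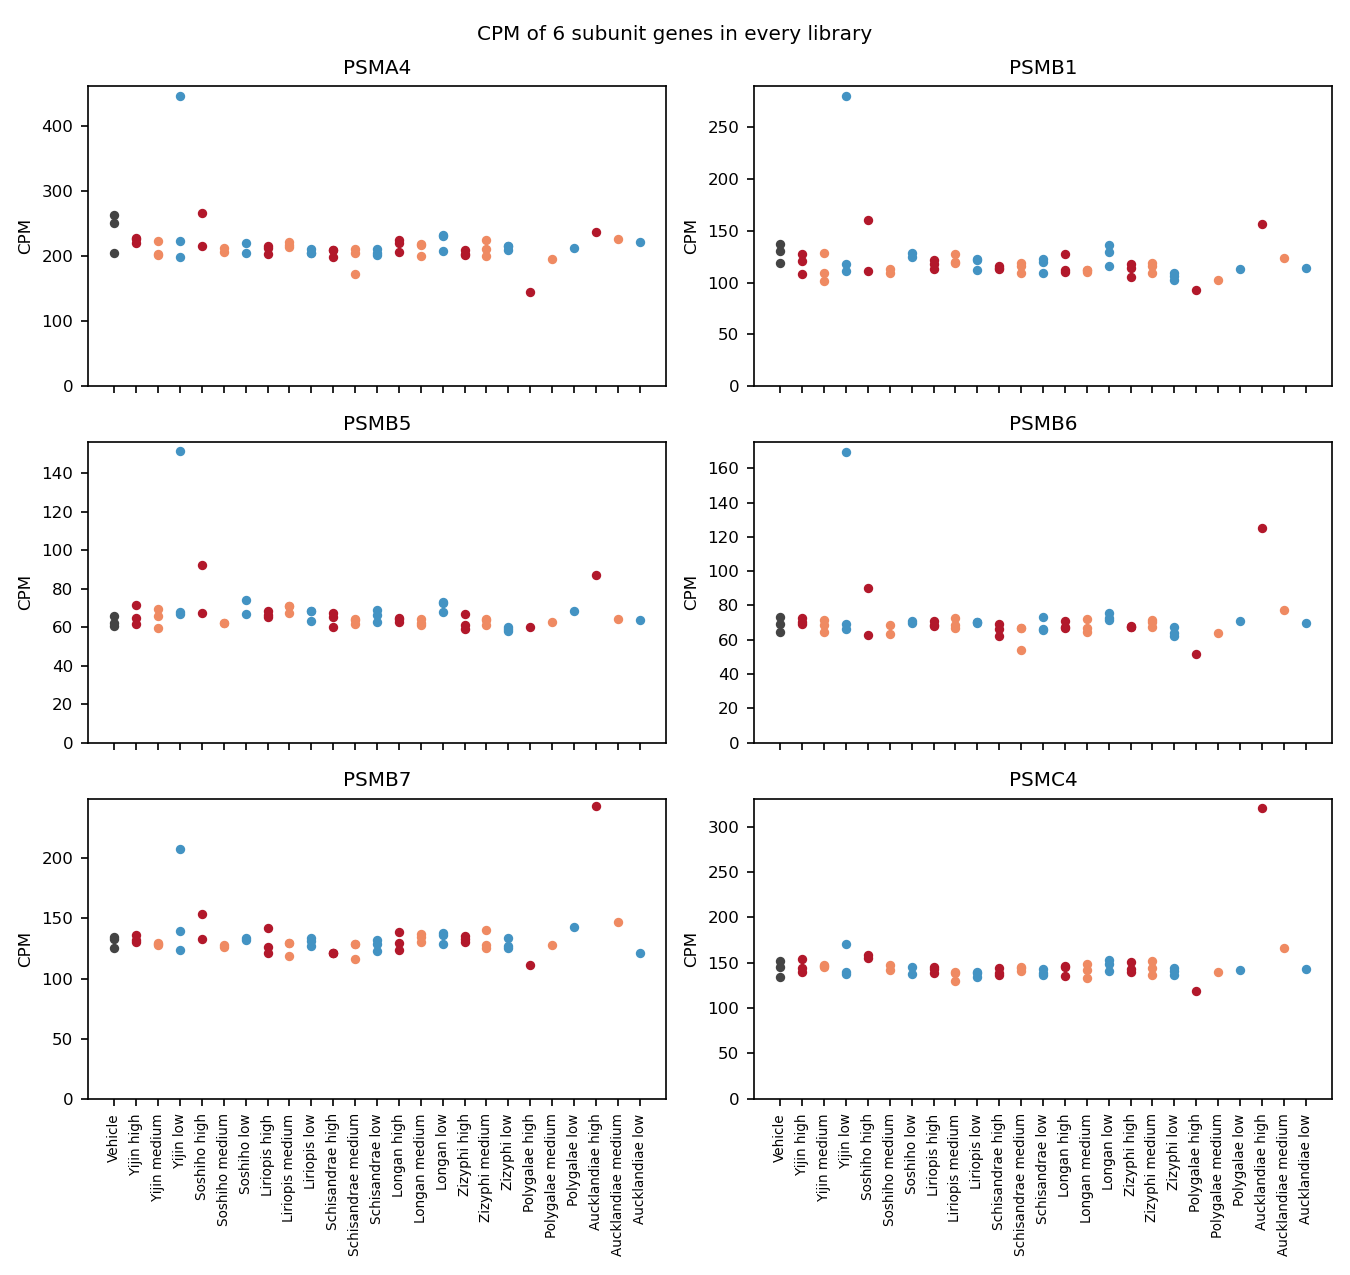
The y axis is CPM on a linear scale from 0, the x axis the 25 groups, and each point is 1 library, for the 2 genes with the largest and the 2 with the smallest mean absolute log2 fold change over the replicated high doses and the genes of the active sites. PSMC4 and PSMB7 are highest at the high dose of Aucklandiae (320.9 and 243.1 CPM), and the 4 other genes are highest in the ribosome-rich library of the low dose of Yijin-tang.

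Over the 25 group means, taken without the libraries that stand apart, the members followed each other, mostly through the high doses of Aucklandiae Radix and Polygalae Radix. Pearson's r of a member with the mean of the others had a median of 0.92 and a minimum of 0.19, and without those 2 groups the median was 0.62. These points share libraries and scaling and are a description. Among 10478 other genes whose mean level reached 5 CPM, those most like the members' mean over the 25 groups were PRDX1 (r = 0.98), CLIC1 (r = 0.98) and SLC39A11 (r = 0.97), followed by YWHAZ, ILK, DSTN, NUCB2, MAOB, DAP3 and ANXA7. Without the 2 high doses r was 0.84 for PRDX1, 0.86 for CLIC1 and 0.67 for SLC39A11. PRDX1, a peroxiredoxin that reduces hydrogen peroxide, had log2 ratios of 0.69 and -0.56 at the high doses of Aucklandiae Radix and Polygalae Radix.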

How the data were processed

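RNA of HT29 cells was measured in 60 mRNA libraries (stranded kit, paired 100-base reads, per the labels' protocols) in 25 groups. Per the submitters' processing notes, the tools were STAR 2.7.3a, RSEM 1.3.3, Trim Galore 0.6.5 and FastQC 0.11.9, with the build GRCh38 (hg38). The annotation release and the strand setting of the counting are not given in the sources used here. The authors deposited expected counts per gene, of which 89.9% are whole within 1e-09. Symbols and gene positions came from GENCODE 29 for 57055 of the 60675 rows.

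Expected counts were rounded, and edgeR 4.0.16 (R 4.3.3) was used. CPM came from TMM factors over all 60 libraries, with a prior count of 2 on the log2 scale. Quasi-likelihood tests came from 1 separate fit, with its own TMM factors, of the 54 libraries of 19 groups with 2 or 3 libraries. That fit held 16890 genes after edgeR's filter on low counts and had a biological coefficient of variation of 9.71%. Calls had a Benjamini-Hochberg adjusted p under 0.05. Groups of 1 library were compared by the log2 ratio of CPM to the vehicle mean. Intervals and counting errors cover counting error only. The fit was tested on simulated data. DESeq2 1.42.0, other scalings, no filter, a replicate block and left-out libraries were tried as alternatives. The members, gene lists and tests were chosen with earlier results of these data known. Genes described in every library were the active-site genes and the pairs with the highest and lowest mean absolute log2 fold change over the 6 replicated high doses; other named members were those called or with the extreme ratios. Wortmannin, named in the series text as a positive control, was not analysed here. Values of some genes in the lists are not reported here.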

Additional observations from a re-analysis of the deposited data

Results flagged for a closer look

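The mean log2 difference of the 32 subunit genes from the vehicle had opposite signs in some pairs of extracts at the same dose level, in every library of each group. At the high dose it was 0.16 for Soshiho-tang (2 libraries) and 0.55 for Aucklandiae Radix (1 library), and -0.29 for Polygalae Radix (1 library). At the medium dose it was 0.0819 for Aucklandiae Radix and -0.0867 for Polygalae Radix, 1 library each. These differences were not tested, since groups of 1 library allow no test, and the doses in µg/mL differ. Of the 2 Soshiho-tang libraries, the one without blood transcripts was at 0.05.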

How the results depend on the processing

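None of the 9 fold changes of members called at the high doses of Yijin-tang and Soshiho-tang, and between doses of Soshiho-tang, turned its direction under the alternatives tried: of these alternatives, 60 kept direction and call and 46 kept direction only. Of the counts of members called, 290 stayed within 1.5 times and 55 did not. In 22 of the 27 comparisons the main count was 0, and there a count that stayed was again 0. The 290 therefore does not measure how stable the calls were. With library totals in place of TMM, the median log2 difference of all genes from the vehicle ran from -0.13 to 0.11 over the extract libraries. With TMM it ran from -0.02 to 0.01. The mean over members with library totals was 0.46 for Aucklandiae Radix high dose and -0.17 for Polygalae Radix high dose. With TMM and 1 vehicle library left out at a time, these means ran from 0.52 to 0.56 and from -0.32 to -0.27.

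The number of members called moved with the choice of libraries. Without the 2 libraries that stand apart it was 2 for Yijin-tang high, 0 for Yijin-tang low, 1 and 4 for Liriopis medium and low, 4, 4 and 3 for Schisandrae high, medium and low, 3 for Longan low, 1 and 2 for Zizyphi high and low, 0 for Yijin-tang high against low, 2 for Longan high against low and 2 for Yijin-tang against Soshiho-tang high. Without only the Yijin-tang library that stands apart, an alternative chosen after seeing the data, it was 0 for Yijin-tang low, 15 for Soshiho-tang high, 1 and 3 for Liriopis medium and low, 3, 3 and 2 for Schisandrae high, medium and low, 0 for Yijin-tang high against low, 16 for Soshiho-tang high against low and 11 for Yijin-tang against Soshiho-tang high. In a fit of the 2 compared groups alone it was 0 for Yijin-tang high and low, for Soshiho-tang high and for both high against low contrasts. With no filter on low counts it was 0 for Yijin-tang high, 1 for Soshiho-tang high and 0 for Soshiho-tang high against low. The cause was not tested. Among the alternatives of this section, the share of all genes called is given, in the Results, only for leaving out both of these libraries. The other counts, here and in the next paragraphs, therefore do not show whether members were called more often than genes in general.

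Leaving out 1 library at a time gave 0 to 1 members called for Yijin-tang high, 0 to 25 for Yijin-tang low, 0 to 6 for Soshiho-tang high, 0 to 24 for Yijin-tang high against low, 0 to 4 for Soshiho-tang high against low and 0 to 2 for Yijin-tang against Soshiho-tang high. Where this leaves 1 library in a group, that library is assumed to vary like the other groups. DESeq2 called 1, 17, 6, 16 and 4 members in the first 5 of these.

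Replicate numbers did not pair the samples: in 0 of 22 comparisons with 3 pairs was every correlation of same-numbered libraries over 0.1. With the replicate number as a block, 0 members were called for Yijin-tang high, 13 for Yijin-tang low, 5 for Soshiho-tang high, 12 for Yijin-tang high against low and 3 for Soshiho-tang high against low.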
